A study of Mus musculus with 47 samples.

Results

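The 7 genes described here are the forkhead transcription factors Foxo1, Foxo3 and Foxo4 and the atrophy ubiquitin ligases Fbxo32, Trim63, Fbxo31 and Fbxo30, measured by bulk RNA sequencing of mouse tibialis anterior, the fast muscle at the front of the shin. They were chosen by name: every row whose Ensembl ID maps to one of these symbols was taken. Each symbol matched 1 row, so 7 of the 13500 genes of the series are covered. All 7 were above 0 in every library and all 7 passed the filter on low values that 12000 genes passed.

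FOXO proteins are kept out of the nucleus when AKT, the kinase downstream of insulin and IGF1, phosphorylates them. When that signal drops they enter the nucleus and switch on genes of protein breakdown and autophagy. In skeletal muscle they are best known for inducing Fbxo32, which encodes atrogin-1, and Trim63, which encodes MuRF1, during fasting, denervation and glucocorticoid excess. Atrogin-1, FBXO31 and FBXO30 (also called MUSA1) are F-box proteins, the parts of SCF ubiquitin ligases that hold the substrate, whereas MuRF1 is a RING-finger ligase that binds the sarcomere. Glucocorticoids act through the glucocorticoid receptor, which is known to work with FOXO1 on the Trim63 gene.

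The study asked how removing the adrenal glands changes day and night gene expression in muscle. Muscle was taken at ZT12 (zeitgeber time 12 h, lights off) or at ZT0 (lights on) from 47 female C57BL/6 mice fed ad libitum, in 6 conditions. WT ADX+DEX mice were wild-type animals without adrenal glands that received 5 mg/kg dexamethasone, a synthetic glucocorticoid. WT ADX+ADR mice received 0.5 mg/kg adrenaline instead. RE-RE ADX and WT ADX mice had both glands removed, 2 days apart, and drank saline with glucose, while RE-RE sham and WT sham mice had the operation without removal. RE-RE mice are homozygous for Bmal1(stopFL/stopFL), an allele in which a floxed stop blocks the clock gene Bmal1 throughout the body. They also carry Syt10-Cre(-/tg), which restores Bmal1 in brain, and Hsa-Cre(-/tg), which restores it in skeletal muscle, so other tissues lack it. Hormones were injected intraperitoneally for 10 days at ZT12. The study places a recovery of 2 weeks after treatment but describes it as recovery from the surgery, so it is uncertain how long after the last injection muscle was taken, and whether hormone values stand for treatment or its aftermath. There was no vehicle-injected group, so the hormone and the injections cannot be told apart. With all injections at ZT12, time of day and hours since an injection cannot be told apart in injected mice either. Each group had 4 libraries, 1 per animal, apart from WT ADX at ZT0 with 3. Ages at ZT12 and ZT0 were 14 and 11 to 14 weeks in WT ADX+DEX, 13 to 14 and 14 weeks in WT ADX+ADR, 12 to 18 and 8 to 15 weeks in RE-RE ADX, 13 to 17 and 12 to 15 weeks in WT ADX, 11 to 14 and 9 to 14 weeks in RE-RE sham, and 10 to 12 and 9 to 11 weeks in WT sham. WT ADX mice were thus all at least as old as WT sham mice, and the part of age in the results was tested only as a covariate.

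Some libraries stood apart before any result. In 40 of 47 libraries, 16 to 80 exact low values were shared with another library of the same group, although recovered depths differed. The other 7 shared at most 1: WT sham ZT12 replicate 8 and ZT0 replicate 4, RE-RE sham ZT12 replicate 6 and ZT0 replicate 2, RE-RE ADX ZT12 replicate 5, and RE-RE ADX ZT0 replicates 1 and 4. The origin of the shared values was not tested. If libraries of a group were not independent, p-values are too small. Results that change without the 7 libraries are given both ways. Leaving those 7 out keeps the 40 that share values, so it cannot test their independence. None of the 7 is a WT ADX, WT ADX+ADR or WT ADX+DEX library. No library was a copy of another: over genes with at least 100 reads in both, the mean squared difference was at least 6.56 times that of counting error in all 69 pairs within groups. A few variable genes can carry such a mean. The median gene was lowest in RE-RE ADX ZT0 replicates 1 and 4, at 1.15 times counting error, and at least 1.77 times in the other pairs, and both of those libraries are among the 7 that stand apart. Depth was 16.3 to 35.7 M reads, recovered from values that are whole multiples of 1 read. All 12 skeletal muscle markers were present in every library, with a summed level of 71410 to 103900 FPKM. Nnt, a mitochondrial transhydrogenase gene that can be missing in C57BL/6 substrains and was looked at after its values were seen, was listed at 0 in 7 of 7 WT ADX and 2 of 8 WT sham libraries. It was at 9.86 to 10.9 FPKM in WT ADX+ADR and 12.7 to 15.4 FPKM in WT ADX+DEX. Its part in any result that uses WT ADX was not tested.

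In the whole muscle, fewer cells of a type and less RNA per cell cannot be told apart. The 8 endothelial markers, none at 0 in any library, had a summed level of 83.1 to 101 FPKM in WT ADX+DEX and 96.3 to 152 FPKM in WT ADX+ADR. It was 108 to 151 FPKM in RE-RE ADX, 187 to 221 FPKM in WT ADX, 114 to 145 FPKM in RE-RE sham and 121 to 152 FPKM in WT sham. They passed the test as higher in 7 of 8 at ZT0 and 8 of 8 at ZT12 in WT ADX against WT sham, and as lower in 8 of 8 and 7 of 8 in WT ADX+DEX against WT ADX. A list of 10 handling and immediate early genes summed to between 134 and 194 FPKM in WT ADX+DEX and between 144 and 470.4 FPKM in WT ADX+ADR. In WT ADX the sum lay between 11.5 and 82.7 FPKM and in WT sham between 12.1 and 105 FPKM. The other marker lists are given beside the shares of all tested genes called. These shares were 68.9% at ZT0 and 66.3% at ZT12 in WT ADX+DEX against WT ADX. They were 51.1% and 53.0% in WT ADX+ADR against WT ADX, and 32.0% and 26.9% in WT ADX against WT sham. The macrophage and blood counts with dexamethasone at ZT0 were below the 68.9%. The handling count with adrenaline at ZT0 was near the 26.8% of all genes called higher. In WT ADX+DEX against WT ADX, 7 of the 12 skeletal muscle markers were higher and 3 lower at each time. Of 8 fibroblast and tendon markers, 1 was higher and 5 lower at ZT0, and 3 were higher and 4 lower at ZT12, with sums of 123 to 168 FPKM in WT ADX+DEX and 85.1 to 484 FPKM in WT ADX. Of these 8, Col1a1, Col1a2, Col3a1, Fmod and Tnmd were listed at 0 in 5 to 11 of the 47 libraries. All 5 blood markers were lower at ZT12 and none passed at ZT0, and of 8 macrophage markers 1 was higher and 2 lower at ZT0 and 1 higher and 4 lower at ZT12. In WT ADX+ADR against WT ADX, 7 of 8 endothelial markers at ZT0 and 6 of 8 at ZT12 were lower, and 3 and 7 of the 10 handling genes were higher. In WT ADX against WT sham, 4 skeletal muscle markers were lower and 1 higher at ZT0 and 6 were lower at ZT12, while macrophage markers were higher in 4 of 8 at ZT0 and in 2, with 1 lower, at ZT12. The part of any of these lists in the results below was not tested.

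The 7 genes fell into abundant and scarce members, compared as FPKM, which is per kilobase of exon. Foxo4 averaged 68.5 FPKM over all 47 libraries, Trim63 67.5, Fbxo32 54.8 and Fbxo31 35.7, each ranking above at least 92.5% of the genes in the table. Foxo3 averaged 5.62 FPKM, Foxo1 4.35 and Fbxo30 3.54. At the recovered depths Fbxo30, the scarcest, had 294 to 686 reads per library and Foxo1 333 to 2734.

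The members also differed in how far they moved between groups. Fbxo32 had the widest range, with a 5.49-fold span between its highest group mean (WT ADX+DEX ZT0) and its lowest (WT ADX ZT0), and Foxo1 spanned 5.26-fold. Fbxo31 spanned 3.71-fold, Foxo3 2.65-fold, Trim63 1.98-fold, Foxo4 1.62-fold and Fbxo30 1.41-fold. A WT ADX+DEX group was the highest of the 12 for 6 of the 7 genes, and WT ADX ZT0 was the lowest for 5. How many of all genes have their extremes in these groups was not counted. WT ADX+DEX against WT ADX called 68.9% of all tested genes at ZT0 and 66.3% at ZT12, 36.4% and 34.6% as higher. Replicate spread was unlike too: the median coefficient of variation within groups was 20.4% for Fbxo32 and 14.8% for Trim63, against 6.02% to 8.56% for the other 5. In 6 of the 84 combinations of gene and group the libraries varied less than counting error would give. The clearest case was Foxo1 in WT ADX+DEX at ZT12, at 4.71, 4.71, 4.76 and 4.72 FPKM, a variation of 0.556% where 764 to 918 reads give 3.49%. Foxo1 in WT ADX at ZT0 (0.620% where reads give 4.93%) and in WT ADX+ADR at ZT12 (2.67% and 3.41%) were others. The rest were Foxo3 in WT sham and WT ADX at ZT12 and Fbxo30 in RE-RE ADX at ZT0. Ranges this narrow make it easier not to overlap another group, and their origin was not tested.

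Ordered by group mean, the ranges of most neighbouring groups overlapped. Neighbours in such an order are close by construction, so their overlap does not show that groups further apart are alike. The share of overlapping neighbours over all genes was not counted. For Fbxo32, Trim63 and Fbxo30 the ranges of all 11 pairs of neighbours overlapped. For Foxo3 the ranges overlapped in 10 of 11 pairs, with WT ADX+DEX ZT0 (8.80 to 10.8 FPKM) clear of the next group, WT ADX+DEX ZT12 (6.40 to 7.04 FPKM). For Foxo4 it was WT ADX+DEX ZT12 (85.1 to 95.1 FPKM) that stood clear, of WT ADX+DEX ZT0 (73.4 to 80.5 FPKM). Fbxo31 had 3 gaps and Foxo1 4, the widest for Foxo1 being between WT ADX+DEX ZT0 (7.31 to 15.6 FPKM) and WT sham ZT12 (3.80 to 5.94 FPKM). Foxo4 ranged over 63.4 to 72.6 FPKM in RE-RE ADX and 68.8 to 79.2 in RE-RE sham at ZT12. Trim63 ranged over 54.5 to 66.5 FPKM in RE-RE ADX and 61.6 to 82.3 in RE-RE sham at ZT12. Fbxo30 was lowest in RE-RE sham ZT12 (2.68 to 3.55 FPKM) and highest in WT sham ZT0 (3.86 to 4.77 FPKM).

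**Figure D1:**
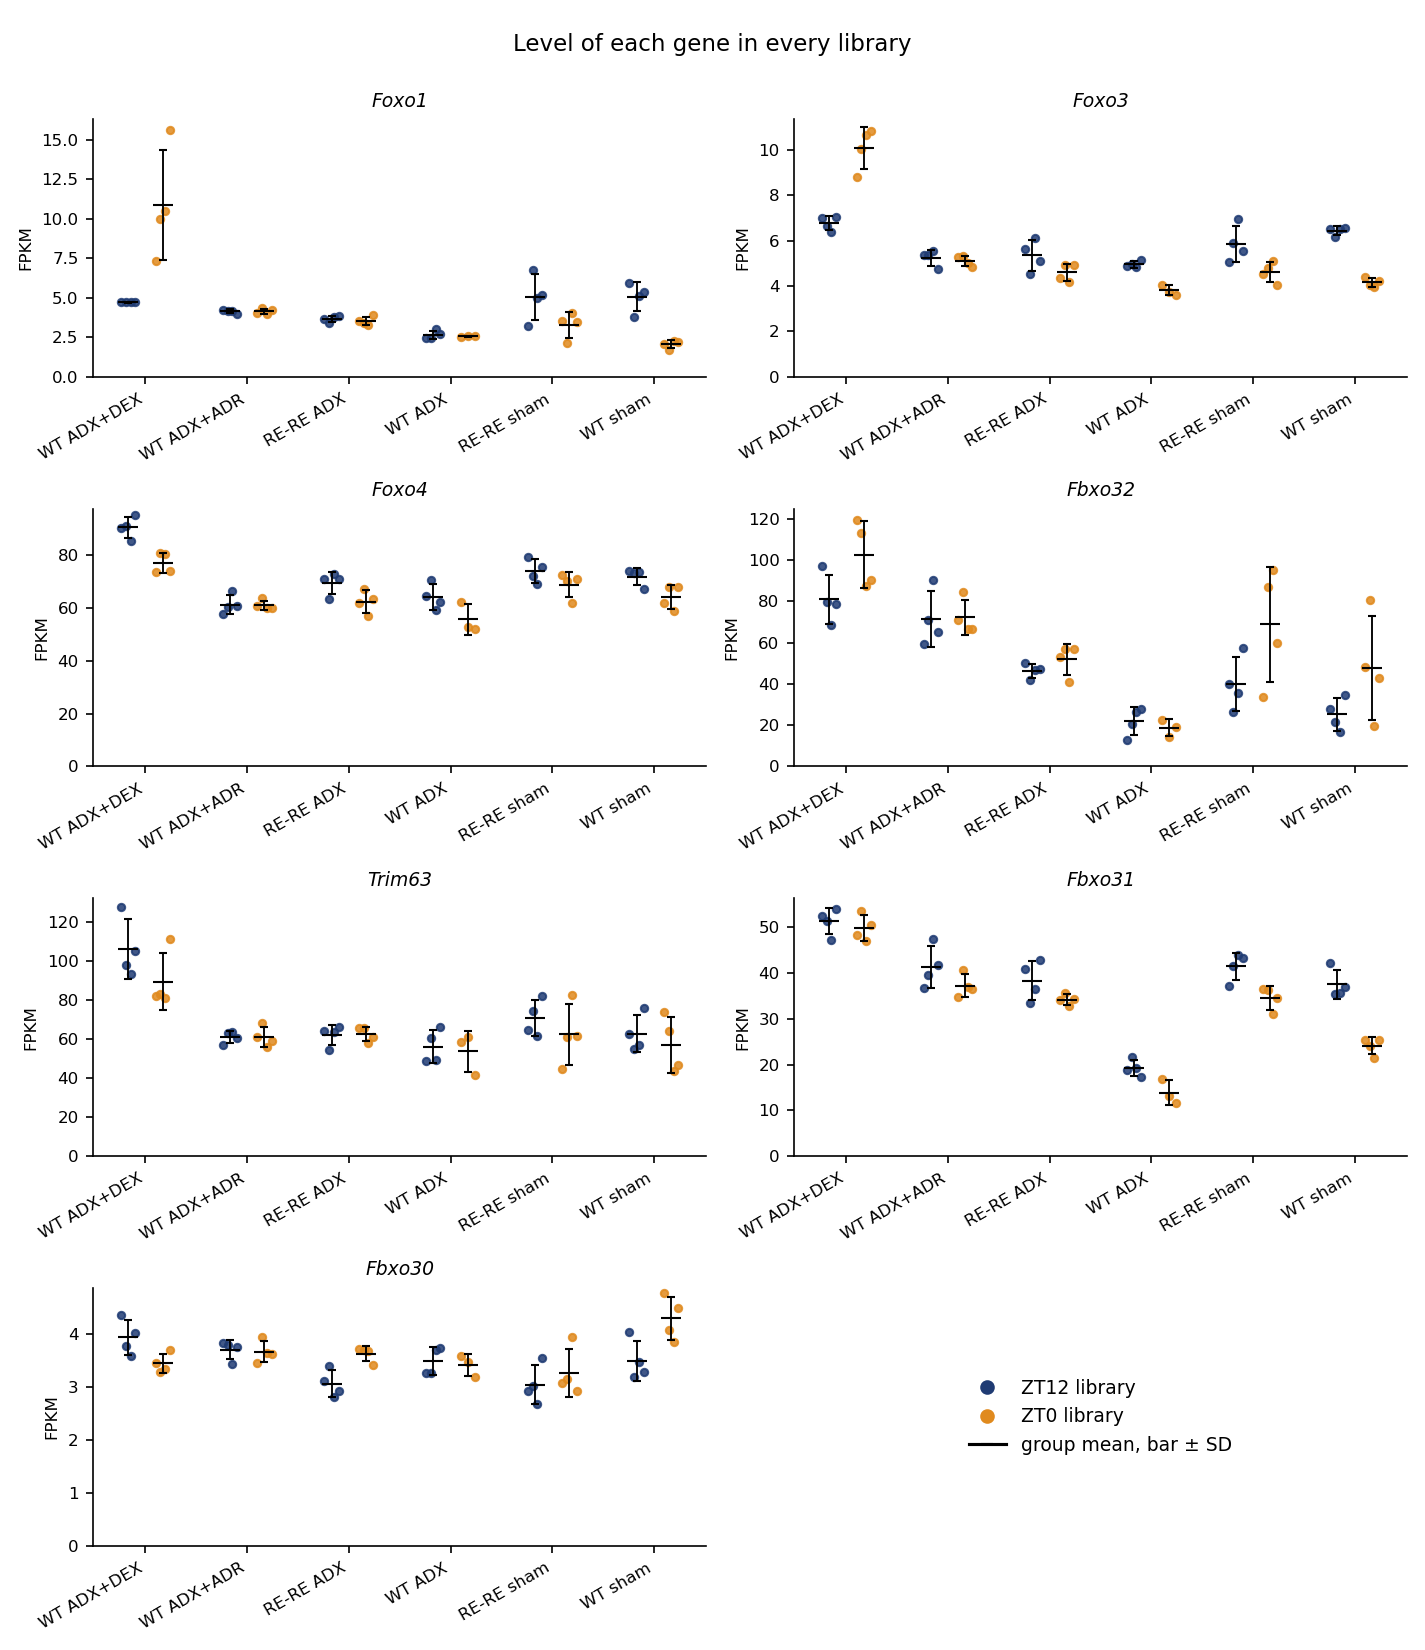
Levels of the 7 genes in FPKM (y axis, linear, from 0) in each library, 1 panel per gene, with the conditions along the x axis and ZT12 left of ZT0 in each; points are libraries, and bars are means ± SD (n = 4, or 3 for WT ADX at ZT0). Fbxo32 ran from 13.0 to 119.6 FPKM over the 47 libraries, while Fbxo30 stayed between 2.68 and 4.77 FPKM.

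On the mouse build GRCm38 with the GENCODE M21 annotation, all 7 are protein-coding genes. Foxo1 (ENSMUSG00000044167) lies at chr3:52268336-52353221 on the + strand, Foxo3 (ENSMUSG00000048756) at chr10:42181841-42276755 on the - strand and Foxo4 (ENSMUSG00000042903) at chrX:101254528-101260873 on the + strand. Of the ligases, Fbxo32 (ENSMUSG00000022358) lies at chr15:58175879-58214932 (-), Trim63 (ENSMUSG00000028834) at chr4:134315120-134329629 (+), Fbxo31 (ENSMUSG00000052934) at chr8:121549440-121578806 (-) and Fbxo30 (ENSMUSG00000047648) at chr10:11281330-11298052 (+). Exons of Foxo1 share 674 bases with the antisense gene Gm20402, and exons of Fbxo32 share 186 with the antisense gene Gm15943. Whether counting used strand is not given in the sources used here, so reads of these stretches cannot be assigned with certainty.

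Promoters are shown for Trim63, the gene known for joint glucocorticoid receptor and FOXO control, and for Foxo1, the factor with the widest range. The windows run from 250 bases before to 50 bases after the annotated start and come from RefSeq on GRCm38.p6, where 5 of the 7 genes matched. Trim63 is at chr4:134314870-134315169 (+) and Foxo1 at chr3:52268087-52268386 (+), both 5′ to 3′, and capitals mark searched motifs.
Trim63: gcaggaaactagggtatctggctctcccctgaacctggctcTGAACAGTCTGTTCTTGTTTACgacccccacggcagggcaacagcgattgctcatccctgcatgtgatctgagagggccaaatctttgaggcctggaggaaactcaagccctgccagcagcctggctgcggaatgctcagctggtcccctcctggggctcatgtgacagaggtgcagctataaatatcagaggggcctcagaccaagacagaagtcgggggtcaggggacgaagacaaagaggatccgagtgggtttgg
Foxo1: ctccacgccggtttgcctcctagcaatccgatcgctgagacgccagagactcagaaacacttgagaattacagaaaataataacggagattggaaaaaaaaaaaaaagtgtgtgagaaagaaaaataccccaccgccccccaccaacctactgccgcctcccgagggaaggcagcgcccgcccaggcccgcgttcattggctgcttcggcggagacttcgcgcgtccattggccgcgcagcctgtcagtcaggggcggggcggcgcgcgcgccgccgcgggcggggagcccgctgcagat

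Both strands were searched for the glucocorticoid receptor palindrome, AGAACA and TGTTCT with any 3 bases between them, with at most 1 of the 12 fixed letters differing, its half-site TGTTCT, the FOXO site TGTTTAC, the E-box CACGTG and the D-box TTATGTAA. In Trim63 the stretch TGAACAGTCTGTTCT, 209 bases before the start, met the palindrome rule. It contains the half-site, 200 bases before the start, and adjoins a FOXO site at 194. Of 32851 promoter windows of the same length, 54 (0.164%) met the palindrome rule, 18.97% held the half-site, 3.65% the FOXO site, 7.15% the E-box and 0.94% the D-box, while 2 (0.00609%) held both a palindrome and a FOXO site. None of these letters occurred in the windows of Foxo1, Foxo3, Fbxo31 or Fbxo30. A match is a description of the sequence and not a measured binding site.

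Day and night levels were compared within each condition (ZT12 against ZT0). In WT sham muscle Foxo1, Foxo3 and Fbxo31 were higher at ZT12, and Fbxo32 and Fbxo30 were lower. After adrenalectomy Foxo1 was not shown to differ between the times while Foxo3, Foxo4 and Fbxo31 were higher at ZT12, and with adrenaline none of the 7 passed the test. With dexamethasone Foxo1 and Foxo3 were lower at ZT12, opposite to the sham mice, and Foxo4 was higher. In the same WT sham comparison 6 of the 12 skeletal muscle markers were higher and 1 lower at ZT12, with sums of 91860 to 103900 FPKM at ZT12 and 77060 to 85010 FPKM at ZT0. Of the 10 handling and immediate early genes 6 were lower there, with sums of 12.1 to 31.9 FPKM at ZT12 and 18.6 to 105 FPKM at ZT0. The part of either list in the WT sham time changes was not tested. Changes were tested with limma on log2(FPKM + 0.01), and a gene was called at a Benjamini-Hochberg adjusted p under 0.05 over the 12000 genes.

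Foxo1, the factor best known for driving both atrogin-1 and gluconeogenic genes, had 5.94, 3.80, 5.11 and 5.39 FPKM at ZT12 in WT sham muscle, against 2.10, 1.70, 2.27 and 2.18 FPKM at ZT0. All 4 libraries at ZT12 lay above all 4 at ZT0. The change was 2.43-fold (log2 change 1.28 ± 0.17 (SE), adjusted p = 7.17e-07). In WT ADX muscle Foxo1 had 2.48, 2.48, 3.02 and 2.70 FPKM at ZT12 and 2.54, 2.56 and 2.58 FPKM at ZT0. These overlapped, close to the low sham ZT0 level (log2 change 0.06 ± 0.18 (SE), adjusted p = 0.899). With adrenaline the values were 4.25, 4.17, 4.19 and 3.99 FPKM at ZT12 and 4.05, 4.33, 3.96 and 4.24 FPKM at ZT0, again overlapping (log2 change 0.00 ± 0.17 (SE), adjusted p = 0.995).

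With dexamethasone the order of the times was turned round. In both injected conditions, time of day goes together with hours since the ZT12 injection, unlike in WT sham and WT ADX. Foxo1 had 4.71, 4.71, 4.76 and 4.72 FPKM at ZT12, against 7.31, 9.99, 10.5 and 15.6 FPKM at ZT0. Every ZT12 library lay below every ZT0 library, and the spread was wide at ZT0 alone (log2 change -1.14 ± 0.17 (SE), adjusted p = 1.92e-06). On the log2 scale this change differed by -2.42 ± 0.24 from the WT sham change (adjusted p = 1.72e-09), from that in WT ADX+ADR by -1.15 ± 0.24 (adjusted p = 0.00105) and from that in WT ADX by -1.20 ± 0.25 (adjusted p = 0.00087). The WT ADX+ADR and WT ADX changes also differed from the sham change, by -1.28 ± 0.24 (adjusted p = 0.00062) and -1.22 ± 0.25 (adjusted p = 0.0049). Those 2 comparisons called 7.93% and 1.54% of all genes, and the dexamethasone ones 18.9%, 13.6% and 17.2% in the order given. With all groups in the model no member's change with adrenaline was shown to differ from that in WT ADX, where 4.62% of all genes did.

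Foxo3 drives autophagy and proteasome genes in muscle together with Foxo1. In WT sham and WT ADX+DEX muscle Foxo3 changed in the same directions as Foxo1, by less. In WT sham muscle it had 6.53, 6.16, 6.52 and 6.56 FPKM at ZT12, against 4.42, 4.05, 3.98 and 4.20 FPKM at ZT0. The times did not overlap (log2 change 0.63 ± 0.08 (SE), adjusted p = 3.8e-07). In WT ADX muscle the Foxo3 values were 4.89, 4.96, 4.82 and 5.14 FPKM at ZT12, against 4.05, 3.74 and 3.63 FPKM at ZT0, again without overlap (log2 change 0.38 ± 0.09 (SE), adjusted p = 0.00407). Adrenaline gave 5.37, 5.38, 5.53 and 4.74 FPKM at ZT12 and 5.27, 5.31, 5.02 and 4.84 FPKM at ZT0, which overlapped (log2 change 0.04 ± 0.08 (SE), adjusted p = 0.82). With dexamethasone Foxo3 had 6.99, 6.65, 6.40 and 7.04 FPKM at ZT12, against 8.80, 10.0, 10.7 and 10.8 FPKM at ZT0. All ZT12 libraries were below all ZT0 libraries there (log2 change -0.57 ± 0.08 (SE), adjusted p = 8.44e-07). The dexamethasone change differed from the changes in WT sham (-1.20 ± 0.11, adjusted p = 6.87e-10), WT ADX (-0.95 ± 0.12, adjusted p = 4.32e-07) and WT ADX+ADR (-0.61 ± 0.11, adjusted p = 0.000294). The adrenaline change differed from the sham change by -0.59 ± 0.11 (adjusted p = 0.000877), whereas the WT ADX change was not shown to differ from it (-0.25 ± 0.12, adjusted p = 0.33). The adrenaline change was not shown to differ from the WT ADX change either (-0.34 ± 0.12, adjusted p = 0.096), though it did in a model of only the groups compared (adjusted p = 0.0434). Unlike Foxo1, then, Foxo3 still passed the test between times in WT ADX, though not in a model of only the groups compared (adjusted p = 0.06).

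Foxo4, the most abundant of the 3 factors in this muscle, moved little with time. It had 90.2, 90.8, 85.1 and 95.1 FPKM at ZT12, against 73.4, 80.5, 80.1 and 73.9 FPKM at ZT0, with dexamethasone. It was thus higher at ZT12 in every library (log2 change 0.23 ± 0.06 (SE), adjusted p = 0.00482), the reverse of Foxo1 and Foxo3 in the same animals. In WT ADX muscle it had 64.3, 70.4, 59.2 and 62.1 FPKM at ZT12 and 62.3, 52.7 and 51.8 FPKM at ZT0, which overlapped (log2 change 0.21 ± 0.07 (SE), adjusted p = 0.0443). That call was lost in a model of only the groups compared (adjusted p = 0.241), with age as a covariate (0.0731), without the libraries that stand apart (0.0741), without WT ADX ZT0 replicate 2 (0.21), without WT ADX ZT0 replicate 3 (0.215), without WT ADX ZT12 replicate 4 (0.0763), without WT ADX ZT12 replicate 5 (0.183) or without WT ADX ZT12 replicate 7 (0.0512). In WT sham muscle the levels averaged 71.7 ± 3.21 FPKM at ZT12 and 64.0 ± 4.55 FPKM at ZT0 (SD, n = 4 each; log2 change 0.17 ± 0.06 (SE), adjusted p = 0.0509). It passed the test without WT sham ZT0 replicate 2 (adjusted p = 0.0345), without WT sham ZT0 replicate 4 (0.0427) or without WT sham ZT12 replicate 8 (0.0369). No difference between conditions in the time change of Foxo4 passed the test with all groups in the model, though WT ADX+DEX minus WT ADX+ADR (0.23 ± 0.09, adjusted p = 0.0839) did in a model of only the groups compared (adjusted p = 0.0393).

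Fbxo32 (atrogin-1) varied more between mice than any other member. In WT sham muscle it had 28.1, 21.5, 16.7 and 34.7 FPKM at ZT12, against 48.1, 80.8, 19.4 and 42.7 FPKM at ZT0. One ZT0 library, at 19.4 FPKM, lay among the ZT12 libraries, and the other 3 were above them (log2 change -0.80 ± 0.30 (SE), adjusted p = 0.0456). The call did not hold in a model of only the groups compared (adjusted p = 0.213), with age as a covariate (0.05), without the libraries that stand apart (0.0702), without WT sham ZT0 replicate 1 (0.101), without WT sham ZT0 replicate 2 (0.246), without WT sham ZT0 replicate 4 (0.0839), without WT sham ZT12 replicate 6 (0.109) or without WT sham ZT12 replicate 7 (0.16). The log2 change was -0.49 without WT sham ZT0 replicate 2. In no other condition did it pass the test: log2 changes were -0.34 ± 0.30 in WT ADX+DEX, -0.03 ± 0.30 in WT ADX+ADR, -0.15 ± 0.30 in RE-RE ADX, 0.20 ± 0.32 in WT ADX and -0.73 ± 0.30 in RE-RE sham (adjusted p between 0.111 and 0.967). The RE-RE sham change passed without its ZT0 replicate 1 (adjusted p = 0.0206).

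Trim63 (MuRF1) passed the test between times in none of the 6 conditions. Its largest log2 change was 0.25 ± 0.15 in WT ADX+DEX (adjusted p = 0.239), where it had 128, 98.1, 93.8 and 105 FPKM at ZT12 and 82.1, 83.1, 81.1 and 111 FPKM at ZT0. The times overlapped through 1 ZT0 library at 111 FPKM. In WT sham muscle it averaged 62.8 ± 9.55 FPKM at ZT12 and 57.3 ± 14.4 FPKM at ZT0 (SD, n = 4 each).

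Fbxo31, an F-box protein known for marking cyclin D1 for destruction, was the ligase with the clearest day and night difference. In WT sham muscle it had 42.2, 35.4, 35.7 and 37.0 FPKM at ZT12, against 25.5, 24.1, 21.5 and 25.4 FPKM at ZT0. The times were fully separate (log2 change 0.64 ± 0.09 (SE), adjusted p = 1.8e-06). In WT ADX muscle the levels were lower at both times, with 18.9, 21.6, 19.3 and 17.3 FPKM at ZT12 and 16.9, 13.1 and 11.6 FPKM at ZT0. They did not overlap (log2 change 0.49 ± 0.10 (SE), adjusted p = 0.000845), although the call was lost in a model of only the groups compared (adjusted p = 0.134). With dexamethasone Fbxo31 had 52.6, 51.4, 47.3 and 54.0 FPKM at ZT12 and 48.4, 53.7, 47.1 and 50.4 FPKM at ZT0, near its highest at both (log2 change 0.04 ± 0.09 (SE), adjusted p = 0.804). The dexamethasone change differed from the sham change by -0.60 ± 0.13 (adjusted p = 0.000789) and from the WT ADX change by -0.45 ± 0.13 (adjusted p = 0.0154). The second difference was lost in a model of only the groups compared (adjusted p = 0.0628) or without WT ADX ZT0 replicate 3 (0.0895), where it was -0.33. The adrenaline change differed from the sham change by -0.49 ± 0.13 (adjusted p = 0.0126) and was not shown to differ from the WT ADX change (-0.34 ± 0.13, adjusted p = 0.135), though it did without WT ADX ZT0 replicate 1 (adjusted p = 0.0146).

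Fbxo30 (MUSA1), a ligase known from denervation atrophy, fell at ZT12 in WT sham muscle, to 4.05, 3.20, 3.47 and 3.29 FPKM, against 4.77, 4.07, 3.86 and 4.50 FPKM at ZT0. The highest ZT12 library lay just inside the ZT0 range (log2 change -0.30 ± 0.09 (SE), adjusted p = 0.00989). The call was lost in a model of only the groups compared (adjusted p = 0.0645) or without the libraries that stand apart (0.137). With dexamethasone it averaged 3.94 ± 0.333 FPKM at ZT12 and 3.45 ± 0.184 FPKM at ZT0 (SD, n = 4 each; adjusted p = 0.0977). That change differed from the sham change by 0.49 ± 0.12 on the log2 scale (adjusted p = 0.00374). The adrenaline change was not shown to differ from the sham change (0.31 ± 0.12, adjusted p = 0.104) except without WT sham ZT12 replicate 5 (adjusted p = 0.0416).

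In RE-RE mice Foxo1 and Foxo3 were higher at ZT12 after sham surgery, and none of the 7 passed the test between times after adrenalectomy. Foxo1 in RE-RE sham muscle had 3.22, 6.74, 5.01 and 5.20 FPKM at ZT12 and 3.54, 2.14, 4.06 and 3.47 FPKM at ZT0. One ZT12 library, at 3.22 FPKM, lay within the ZT0 range (log2 change 0.60 ± 0.17 (SE), adjusted p = 0.0167). This call was lost in a model of only the groups compared (adjusted p = 0.243), without the libraries that stand apart (0.474), without RE-RE sham ZT0 replicate 2 (0.132), without RE-RE sham ZT12 replicate 6 (0.112) or without RE-RE sham ZT12 replicate 8 (0.0546), and the log2 change without the libraries that stand apart was 0.25. Foxo3 had 5.08, 5.90, 6.95 and 5.54 FPKM at ZT12 and 4.53, 4.79, 5.12 and 4.03 FPKM at ZT0, overlapping in 1 library (log2 change 0.34 ± 0.08 (SE), adjusted p = 0.00423; adjusted p = 0.138 in a model of only the groups compared). Fbxo31 had 37.2, 41.5, 44.0 and 43.2 FPKM at ZT12 and 36.6, 36.4, 31.0 and 34.5 FPKM at ZT0, separate but just short of the threshold (log2 change 0.26 ± 0.09 (SE), adjusted p = 0.054). It passed on log2(FPKM + 1) (adjusted p = 0.0485), with equal library medians (0.0491) or without RE-RE sham ZT12 replicate 5 (0.0306). The RE-RE sham and WT sham time changes were not shown to differ for any of the 7, with Fbxo31 nearest the threshold at -0.38 ± 0.13 (adjusted p = 0.16) and Foxo1 largest in size at -0.68 ± 0.24 (adjusted p = 0.19), in a comparison that called 0.342% of all genes. In RE-RE ADX muscle the log2 changes ran from -0.25 ± 0.09 for Fbxo30, whose times did not overlap, to 0.21 ± 0.08 for Foxo3. None of the 7 time changes in RE-RE ADX was shown to differ from that in RE-RE sham, where 0.0667% of all genes did.

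Counted together, the members called between times were 1 higher and 2 lower in WT ADX+DEX, 0 in WT ADX+ADR, 0 in RE-RE ADX, 3 higher in WT ADX, 2 higher in RE-RE sham, and 3 higher and 2 lower in WT sham. Of all tested genes, 27.8%, 12.7%, 0.775%, 11.0%, 10.8% and 23.5% were called in the same comparisons, with 7.64% called higher in WT ADX and 5.73% in RE-RE sham. The median log2 change of the 7 was 0.17 in WT sham, against 0.01 over all tested genes. Over the 6 conditions 13 calls were made, and 6 in a model of only the groups compared. ZT12 and ZT0 alone do not show a rhythm or its phase.

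**Figure D2:**
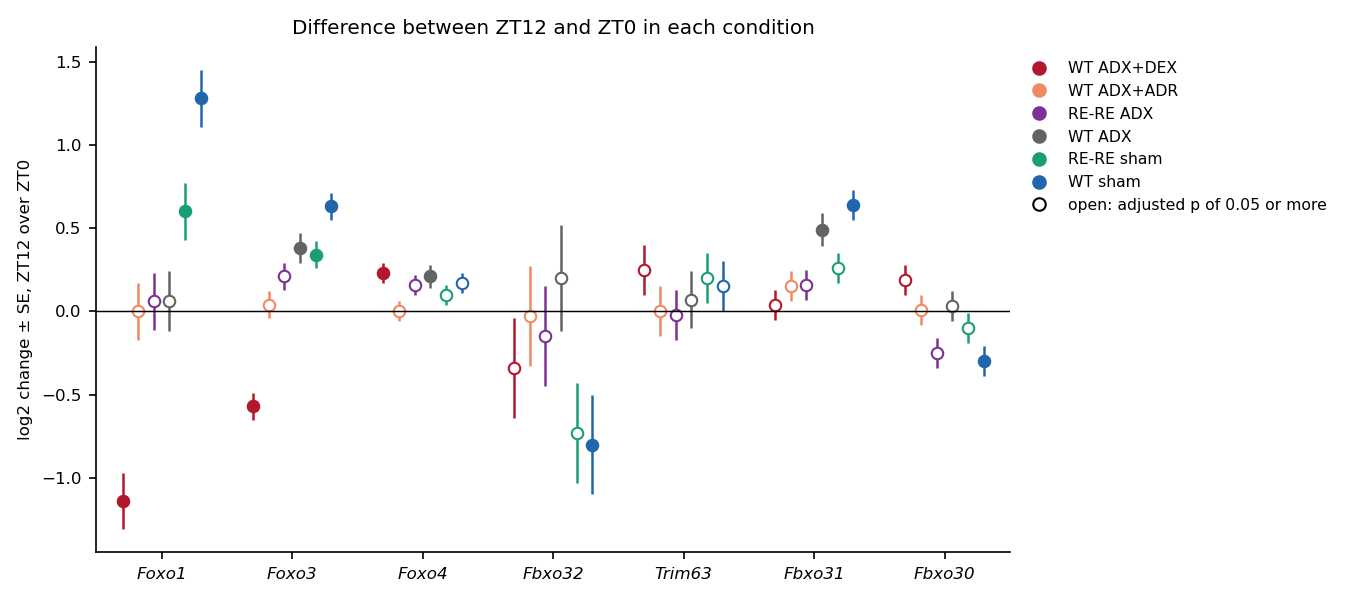
Log2 change of ZT12 over ZT0 (y axis) with its SE for each of the 7 genes (x axis) in the 6 conditions; filled points passed the test at an adjusted p under 0.05 and open points did not. Foxo1 sat at -1.14 in WT ADX+DEX and at 1.28 in WT sham, with Foxo3 at -0.57 in WT ADX+DEX and at 0.63 in WT sham, while Trim63 was open in all 6.

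After removal of the adrenal glands Fbxo31 was lower in wild-type muscle at both times. At ZT0 Fbxo32, Fbxo30 and Foxo4 were also lower, and at ZT12 Foxo1, Foxo3 and Foxo4 were. In RE-RE muscle none of the 7 passed the test after the same operation. The wild-type comparison called 32.0% of all genes at ZT0 and 26.9% at ZT12, and the RE-RE comparison 5.45% and 5.32%, while 19.4% and 16.6% were called lower in wild type. Beside those shares, 4 of the 7 members were lower and none was higher at each time.

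The values of Fbxo31 in WT ADX muscle, given above, were below every WT sham library at the same time. Its mean was 13.8 ± 2.74 FPKM in WT ADX and 24.1 ± 1.86 FPKM in WT sham at ZT0 (SD, n = 3 and 4; log2 change -0.82 ± 0.10 (SE), adjusted p = 6.16e-08). At ZT12 it was 19.3 ± 1.77 FPKM in WT ADX and 37.5 ± 3.15 FPKM in WT sham (SD, n = 4 each; log2 change -0.96 ± 0.09 (SE), adjusted p = 6.99e-10). In RE-RE muscle Fbxo31 had 34.1, 35.7, 32.8 and 34.3 FPKM in RE-RE ADX and 36.6, 36.4, 31.0 and 34.5 FPKM in RE-RE sham at ZT0. These overlapped (log2 change -0.02 ± 0.09 (SE), adjusted p = 0.956), as did 40.9, 33.4, 36.5 and 42.8 FPKM in RE-RE ADX and 37.2, 41.5, 44.0 and 43.2 FPKM in RE-RE sham at ZT12 (log2 change -0.12 ± 0.09 (SE), adjusted p = 0.491). The change between ADX and sham mice differed between the genotypes, by 0.80 ± 0.13 at ZT0 (adjusted p = 0.000104) and 0.85 ± 0.13 at ZT12 (adjusted p = 5.82e-05) on the log2 scale. Those comparisons called 10.7% and 6.43% of all genes. Wild-type ADX and sham mice also differed in age and in Nnt. Nnt was listed at 0 in 7 of 7 WT ADX, 2 of 8 WT sham and 0 of 8 libraries of each RE-RE condition. Its part in the genotype difference was not tested.

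Fbxo32 fell to 22.5, 14.4 and 19.3 FPKM in WT ADX at ZT0, against 48.1, 80.8, 19.4 and 42.7 FPKM in WT sham. The 3 WT ADX values overlapped only the sham library at 19.4 FPKM (log2 change -1.20 ± 0.32 (SE), adjusted p = 0.00391; adjusted p = 0.108 in a model of only the groups compared). At ZT12 it averaged 22.0 ± 6.73 FPKM in WT ADX and 25.3 ± 7.82 FPKM in WT sham (SD, n = 4 each; adjusted p = 0.653). The change of Fbxo32 between ADX and sham mice was not shown to differ between RE-RE and WT at ZT0 (0.89 ± 0.44, adjusted p = 0.189). Without WT sham ZT0 replicate 3 the difference was 1.27 and passed (adjusted p = 0.0343). Fbxo30 fell at ZT0, to 3.42 ± 0.205 FPKM in WT ADX, against 4.30 ± 0.412 FPKM in WT sham (SD, n = 3 and 4; log2 change -0.33 ± 0.09 (SE), adjusted p = 0.00611; adjusted p = 0.0506 in a model of only the groups compared). Its ZT0 effect in RE-RE minus WT was 0.49 ± 0.13 (adjusted p = 0.00993, and 0.113 without the libraries that stand apart). Trim63 did not pass the test at either time, with 53.8 ± 10.4 FPKM in WT ADX and 57.3 ± 14.4 FPKM in WT sham at ZT0 (SD, n = 3 and 4).

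Among the factors, Foxo1 at ZT12 had 2.48, 2.48, 3.02 and 2.70 FPKM in WT ADX, against 5.94, 3.80, 5.11 and 5.39 FPKM in WT sham. The groups did not overlap (log2 change -0.91 ± 0.17 (SE), adjusted p = 0.000135). At ZT0 they did not overlap either, but in the other direction and without passing the test (0.32 ± 0.18, adjusted p = 0.187). Foxo3 at ZT12 was also lower in all WT ADX libraries (log2 change -0.38 ± 0.08 (SE), adjusted p = 0.000617). Foxo4 log2 changes of -0.21 ± 0.07 at ZT0 (adjusted p = 0.0194) and -0.17 ± 0.06 at ZT12 (adjusted p = 0.0467) were close to the threshold. The first was lost in a model of only the groups compared (adjusted p = 0.132), without the libraries that stand apart (0.0945), without WT sham ZT0 replicate 2 (0.0633), without WT sham ZT0 replicate 4 (0.0662), without WT ADX ZT0 replicate 2 (0.105) or without WT ADX ZT0 replicate 3 (0.138). The second was lost in a model of only the groups compared (adjusted p = 0.0701), with age as a covariate (0.11), without WT sham ZT12 replicate 5 (0.112), without WT sham ZT12 replicate 6 (0.0902), without WT sham ZT12 replicate 7 (0.0988), without WT ADX ZT12 replicate 4 (0.0738), without WT ADX ZT12 replicate 6 (0.172) or without WT ADX ZT12 replicate 7 (0.103). In RE-RE muscle the factor nearest the threshold was Foxo1 at ZT12, with 3.68 ± 0.198 FPKM in RE-RE ADX and 5.04 ± 1.44 FPKM in RE-RE sham (SD, n = 4 each; adjusted p = 0.158, and 0.0352 without RE-RE sham ZT12 replicate 5). Across both times 8 calls were made in wild-type mice, and 4 in a model of only the groups compared.

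Hormone injection was set against adrenalectomy alone to see what each hormone does without adrenal glands. With dexamethasone 6 of the 7 genes were higher at both times, Fbxo30 being the exception. With adrenaline Foxo1, Fbxo32 and Fbxo31 were higher at both times and Foxo3 at ZT0, and Foxo4, Trim63 and Fbxo30 did not pass the test. Both sets of comparisons share the WT ADX libraries with those against WT sham, so low values in WT ADX enter all of them. Of all tested genes, dexamethasone against WT ADX called 68.9% at ZT0 and 66.3% at ZT12, and adrenaline called 51.1% and 53.0%, so more than the members moved. Called higher with dexamethasone were 36.4% at ZT0 and 34.6% at ZT12, and with adrenaline 26.8% and 27.7%.

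Fbxo31 separated the conditions most evenly. At ZT0 it had 48.4, 53.7, 47.1 and 50.4 FPKM in WT ADX+DEX and 34.7, 40.7, 37.1 and 36.5 FPKM in WT ADX+ADR, against 16.9, 13.1 and 11.6 FPKM in WT ADX. The 3 groups did not overlap. The change was 3.65-fold with dexamethasone (log2 change 1.87 ± 0.10 (SE), adjusted p = 9.67e-19) and 2.72-fold with adrenaline (log2 change 1.44 ± 0.10 (SE), adjusted p = 1.97e-14). At ZT12 Fbxo31 was 2.67-fold higher with dexamethasone (log2 change 1.42 ± 0.09 (SE), adjusted p = 5.55e-16) and 2.14-fold higher with adrenaline (log2 change 1.10 ± 0.09 (SE), adjusted p = 4.09e-12).

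Fbxo32 showed the largest fold changes of the 7. It had 119.6, 113, 87.6 and 90.4 FPKM in WT ADX+DEX and 71.2, 84.8, 66.4 and 66.6 FPKM in WT ADX+ADR at ZT0, against 22.5, 14.4 and 19.3 FPKM in WT ADX. Every injected library was at least 66.4 FPKM and every WT ADX library at most 22.5 FPKM. The folds were 5.53 with dexamethasone (log2 change 2.47 ± 0.32 (SE), adjusted p = 1.65e-08) and 3.9 with adrenaline (log2 change 1.97 ± 0.32 (SE), adjusted p = 4.47e-06). At ZT12 it had 97.0, 79.7, 68.4 and 79.0 FPKM in WT ADX+DEX and 59.1, 70.9, 90.3 and 65.0 FPKM in WT ADX+ADR, against 13.0, 20.7, 26.5 and 27.7 FPKM in WT ADX. Neither injected group overlapped WT ADX (3.81-fold and 3.34-fold, adjusted p = 5.7e-07 and 8.28e-06).

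Trim63 was higher with dexamethasone and was not shown to differ with adrenaline. At ZT12 it had 128, 98.1, 93.8 and 105 FPKM in WT ADX+DEX and 57.1, 63.0, 63.5 and 60.6 FPKM in WT ADX+ADR, against 48.6, 60.9, 49.3 and 66.2 FPKM in WT ADX. The dexamethasone libraries stood above all others, and the adrenaline libraries lay within the WT ADX range. The change was 1.89-fold with dexamethasone (log2 change 0.92 ± 0.15 (SE), adjusted p = 2.44e-06), against a log2 change of 0.13 ± 0.15 with adrenaline (adjusted p = 0.495). At ZT0 it was 1.67-fold with dexamethasone (log2 change 0.74 ± 0.17 (SE), adjusted p = 0.000166) and 0.20 ± 0.17 on the log2 scale with adrenaline (adjusted p = 0.316). The promoter window of Trim63, printed above, holds the receptor palindrome and the FOXO site, but their part in these changes was not tested. Foxo4, which had no window among those matched, also passed with dexamethasone at both times and not with adrenaline.

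Foxo1 at ZT0 was 4.07-fold higher in WT ADX+DEX than in WT ADX (log2 change 2.03 ± 0.18 (SE), adjusted p = 3.83e-12), and at ZT12 1.77-fold higher (log2 change 0.83 ± 0.17 (SE), adjusted p = 6.11e-05). With adrenaline the log2 changes were 0.69 ± 0.18 at ZT0 (adjusted p = 0.00198) and 0.64 ± 0.17 at ZT12 (adjusted p = 0.0019). From the values given above, no injected library overlapped a WT ADX library at either time. Foxo3 was 2.64-fold higher with dexamethasone at ZT0 (log2 change 1.40 ± 0.09 (SE), adjusted p = 2.28e-16), by a log2 change of 0.45 ± 0.08 at ZT12 (adjusted p = 8.62e-06), and by 0.42 ± 0.09 with adrenaline at ZT0 (adjusted p = 0.000126). Foxo4 rose with dexamethasone, to 77.0 ± 3.86 FPKM in WT ADX+DEX, against 55.6 ± 5.81 FPKM in WT ADX at ZT0 (SD, n = 4 and 3; log2 change 0.47 ± 0.07 (SE), adjusted p = 1.36e-07). At ZT12 the log2 change was 0.50 ± 0.06 (adjusted p = 1.23e-08). With adrenaline Foxo4 at ZT0 changed by 0.14 ± 0.07 (adjusted p = 0.092, and 0.0116 without WT ADX ZT0 replicate 1). Fbxo30 did not pass, at 0.01 ± 0.09 and 0.17 ± 0.09 with dexamethasone at ZT0 and ZT12. At ZT12 it passed with equal library medians (adjusted p = 0.0284), without WT ADX ZT12 replicate 7 (0.0492) or without WT ADX+DEX ZT12 replicate 7 (0.0397).

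The 2 injected groups, compared with each other, carry the injections in both arms. Dexamethasone muscle was higher in Foxo1, Foxo3, Foxo4, Trim63 and Fbxo31 at ZT0 and in Foxo3, Foxo4, Trim63 and Fbxo31 at ZT12, where 48.6% and 42.6% of all genes were called, 25.1% and 21.2% of all genes as higher. The log2 differences at ZT0 were 1.33 ± 0.17 for Foxo1 (adjusted p = 3.41e-08), 0.97 ± 0.08 for Foxo3 (adjusted p = 1.73e-12) and 0.54 ± 0.15 for Trim63 (adjusted p = 0.0037). At ZT12 they were 0.79 ± 0.15 for Trim63 (adjusted p = 6.72e-05), 0.56 ± 0.06 for Foxo4 (adjusted p = 3.45e-09) and 0.19 ± 0.17 for Foxo1 (adjusted p = 0.401; 0.00992 in a model of only the groups compared). Fbxo32 was not shown to differ between the hormones, at 0.50 ± 0.30 at ZT0 (adjusted p = 0.164, and 0.0102 in a model of only the groups compared) and 0.19 ± 0.30 at ZT12 (adjusted p = 0.646).

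Set against intact mice, the injected mice showed whether levels had returned. With dexamethasone at ZT0, 6 of the 7 genes were above WT sham and Fbxo30 was below, where 62.6% of all genes were called. Foxo1 was 5.08-fold higher (log2 change 2.34 ± 0.17 (SE), adjusted p = 2.41e-14), with no overlap between the groups. At ZT12, with 52.7% of all genes called and 24.6% higher, Fbxo32, Trim63, Fbxo31 and Foxo4 were higher (log2 changes 1.72 ± 0.30, 0.76 ± 0.15, 0.45 ± 0.09 and 0.33 ± 0.06). There Foxo1 and Foxo3 were not shown to differ from sham (-0.08 ± 0.17 and 0.07 ± 0.08). Fbxo30 did not pass at ZT12 either (0.17 ± 0.09, adjusted p = 0.0861), though it did with equal library medians (adjusted p = 0.0435), without WT sham ZT12 replicate 5 (0.0202) or without WT ADX+DEX ZT12 replicate 7 (0.0489).

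With adrenaline, where 43.1% of all genes at ZT0 and 39.0% at ZT12 were called, Foxo1, Foxo3, Fbxo32 and Fbxo31 were above WT sham at ZT0 and Fbxo30 below it. At ZT12 Fbxo32 alone was higher and Foxo3 and Foxo4 were lower. Fbxo32 had 59.1, 70.9, 90.3 and 65.0 FPKM in WT ADX+ADR, against 28.1, 21.5, 16.7 and 34.7 FPKM in WT sham at ZT12, with no overlap (log2 change 1.53 ± 0.30 (SE), adjusted p = 9.59e-05). At ZT0 the sham library at 80.8 FPKM lay inside the adrenaline range (log2 change 0.76 ± 0.30 (SE), adjusted p = 0.0358). That ZT0 call was lost in a model of only the groups compared (adjusted p = 0.132), with age as a covariate (0.0797), without the libraries that stand apart (0.0663), without WT sham ZT0 replicate 3 (0.277), without WT sham ZT0 replicate 4 (0.0593), without WT ADX+ADR ZT0 replicate 1 (0.0567) or without WT ADX+ADR ZT0 replicate 2 (0.0925). Without WT sham ZT0 replicate 3 the log2 change was 0.39. Fbxo30 at ZT0 (-0.22 ± 0.09, adjusted p = 0.0323) was lost with age as a covariate (adjusted p = 0.0786), without the libraries that stand apart (0.118), without WT sham ZT0 replicate 1 (0.132), without WT sham ZT0 replicate 4 (0.0852), without WT ADX+ADR ZT0 replicate 1 (0.0886), without WT ADX+ADR ZT0 replicate 3 (0.0588) or without WT ADX+ADR ZT0 replicate 4 (0.0607).

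**Figure D3:**
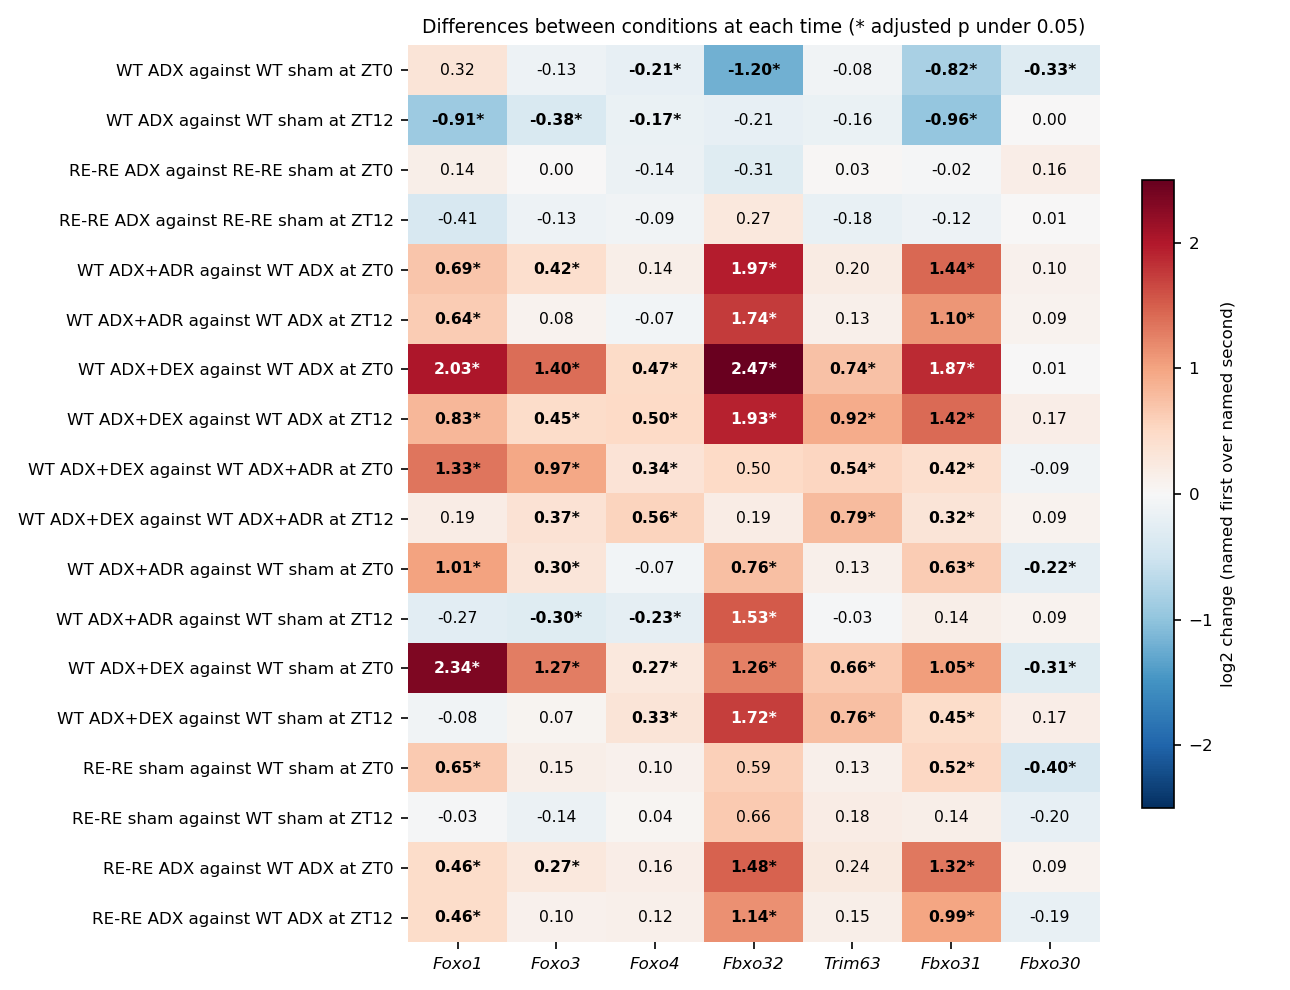
Log2 change (colour, red higher and blue lower in the first-named group) of the 7 genes (columns) in 18 comparisons between conditions at 1 time (rows); an asterisk marks an adjusted p under 0.05. Fbxo31 was marked in every comparison of an injected group with WT ADX, from 1.10 to 1.87, and no gene was marked in RE-RE ADX against RE-RE sham.

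RE-RE muscle was then set against wild type. After adrenalectomy Fbxo31, Fbxo32 and Foxo1 were higher in RE-RE ADX than in WT ADX at both times, and Foxo3 at ZT0, where 39.0% of all genes at ZT0 and 38.0% at ZT12 were called, 20.7% and 19.7% as higher. In sham mice Foxo1 and Fbxo31 were higher and Fbxo30 was lower in RE-RE at ZT0, and none of the 7 passed at ZT12, with 24.1% and 19.3% of all genes called. Markers of other cells moved with the genotype as well: in RE-RE ADX against WT ADX all 8 endothelial markers were lower at both times, and 1 of 8 fibroblast and tendon markers at ZT0 and 6 of 8 at ZT12 were higher. In RE-RE sham against WT sham 3 and 6 of those 8 were higher, and 7 of 10 handling genes were higher at ZT12, with sums of 89.3 to 133 FPKM in RE-RE sham and 12.1 to 31.9 FPKM in WT sham. Their part in the genotype differences was not tested. Fbxo31 had 34.1, 35.7, 32.8 and 34.3 FPKM in RE-RE ADX, against 16.9, 13.1 and 11.6 FPKM in WT ADX at ZT0. The lowest RE-RE library was above the highest WT one (log2 change 1.32 ± 0.10 (SE), adjusted p = 4.17e-13), as it was at ZT12 (log2 change 0.99 ± 0.09 (SE), adjusted p = 1.23e-10). Fbxo32 had 53.1, 56.7, 40.9 and 56.9 FPKM in RE-RE ADX, against 22.5, 14.4 and 19.3 FPKM in WT ADX at ZT0, also without overlap (log2 change 1.48 ± 0.32 (SE), adjusted p = 0.000406). At ZT12 the log2 difference was 1.14 ± 0.30 (adjusted p = 0.00266).

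After adrenalectomy the factors differed less between genotypes than Fbxo31 and Fbxo32 did. Foxo1 had 3.56, 3.38, 3.31 and 3.91 FPKM in RE-RE ADX, against 2.54, 2.56 and 2.58 FPKM in WT ADX at ZT0. The groups did not overlap, yet the call was near the threshold (log2 change 0.46 ± 0.18 (SE), adjusted p = 0.043). It was lost on log2(FPKM + 1) (adjusted p = 0.0584), with age as a covariate (0.0675), without the libraries that stand apart (0.145), without WT ADX ZT0 replicate 1 (0.0879), without WT ADX ZT0 replicate 2 (0.0894), without WT ADX ZT0 replicate 3 (0.0857), without RE-RE ADX ZT0 replicate 1 (0.0707), without RE-RE ADX ZT0 replicate 2 (0.0542) or without RE-RE ADX ZT0 replicate 4 (0.102). At ZT12 (0.46 ± 0.17, adjusted p = 0.0293) it was lost without WT ADX ZT12 replicate 4 (adjusted p = 0.0696), without WT ADX ZT12 replicate 5 (0.0693), without RE-RE ADX ZT12 replicate 5 (0.0541), without RE-RE ADX ZT12 replicate 7 (0.0551) or without RE-RE ADX ZT12 replicate 8 (0.0681). Foxo3 at ZT0 (0.27 ± 0.09, adjusted p = 0.0134) was lost without the libraries that stand apart (adjusted p = 0.0947) or without WT ADX ZT0 replicate 3 (0.0661). Foxo4 did not pass at ZT0 (0.16 ± 0.07, adjusted p = 0.0518) or ZT12 (0.12 ± 0.06, adjusted p = 0.137). It passed at ZT0 without WT ADX ZT0 replicate 1 (adjusted p = 0.00709) or without RE-RE ADX ZT0 replicate 3 (0.0211) and at ZT12 without WT ADX ZT12 replicate 5 (adjusted p = 0.0496). Fbxo30 at ZT12 (-0.19 ± 0.09, adjusted p = 0.0773) passed without RE-RE ADX ZT12 replicate 6 (adjusted p = 0.0367).

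Among sham mice at ZT0, Fbxo31 had 36.6, 36.4, 31.0 and 34.5 FPKM in RE-RE sham, against 25.5, 24.1, 21.5 and 25.4 FPKM in WT sham, with no overlap (log2 change 0.52 ± 0.09 (SE), adjusted p = 5.8e-05). Foxo1 was higher by 0.65 ± 0.17 (adjusted p = 0.00514) and Fbxo30 changed by -0.40 ± 0.09 (adjusted p = 0.000842). Both missed the threshold in a model of only the groups compared, at 0.0711 and 0.0537. Fbxo32 did not pass (0.59 ± 0.30, adjusted p = 0.143) except without WT sham ZT0 replicate 2 (adjusted p = 0.0254) or without RE-RE sham ZT0 replicate 1 (0.0242). At ZT12 Foxo3 passed without RE-RE sham ZT12 replicate 7 (adjusted p = 0.0459) and Fbxo30 without RE-RE sham ZT12 replicate 8 (adjusted p = 0.0253).

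The wider pathway was read from 5 lists of genes around these 7. In WT ADX+DEX against WT ADX, 68.9% of all genes were called at ZT0 and 66.3% at ZT12. Of 24 other FOXO-induced genes, 10 were higher and 5 lower at ZT0 and 18 were higher and 1 lower at ZT12, with a median log2 change of 0.24 and 0.40, against 0.04 and 0.02 over all tested genes. The share called was 62.5% at ZT0, below that of all genes, and 79.2% at ZT12, where 75.0% were higher, against 34.6% of all genes. Map1lc3a, an autophagosome coat protein, had 203 ± 7.72 FPKM in WT ADX+DEX and 49.0 ± 5.97 FPKM in WT ADX at ZT12 (SD, n = 4 each; log2 change 2.05 ± 0.10, adjusted p = 3.94e-19). Bnip3, a mitophagy receptor, had 77.7 ± 3.60 FPKM in WT ADX+DEX and 40.6 ± 2.59 FPKM in WT ADX (log2 change 0.94 ± 0.06, adjusted p = 2.05e-15). Eif4ebp1, a brake on translation, had 54.2 ± 4.34 FPKM in WT ADX+DEX and 17.0 ± 2.53 FPKM in WT ADX at ZT0 (log2 change 1.68 ± 0.13, adjusted p = 5.38e-14).

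Of the 23 upstream regulators, 12 were higher and 8 lower at ZT0 in WT ADX+DEX against WT ADX, and 11 and 4 at ZT12, which is 87.0% and 65.2% called. Klf15, a glucocorticoid-induced transcription factor that drives amino acid breakdown, had 26.9 ± 3.40 FPKM in WT ADX+DEX and 5.56 ± 1.59 FPKM in WT ADX at ZT0 (log2 change 2.30 ± 0.16, adjusted p = 1.99e-15). Sgk1, a kinase that, like AKT, phosphorylates FOXO factors, had 52.8 ± 7.66 FPKM in WT ADX+DEX and 13.7 ± 2.92 FPKM in WT ADX (log2 change 1.95 ± 0.22, adjusted p = 9.44e-10). Pik3r1, the regulatory subunit of PI3-kinase, was at 36.5 to 50.8 FPKM in WT ADX+DEX and listed at 0 in all 3 WT ADX libraries at ZT0. Whether those 0 values are measured levels or come from the processing of the deposited values was not tested. Akt1 was lower, at 11.8 ± 1.09 FPKM in WT ADX+DEX and 23.1 ± 1.00 FPKM in WT ADX at ZT12 (log2 change -0.97 ± 0.10, adjusted p = 5.49e-11).

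Other ligases were divided. Of 18 muscle ubiquitin ligases beside the 4 described, 7 were higher and 4 lower at ZT0 and 9 higher and 5 lower at ZT12 in WT ADX+DEX against WT ADX. These are shares called of 61.1% and 77.8%, against 68.9% and 66.3% of all genes. Ubr2, an N-end rule ligase, had 33.8 ± 1.79 FPKM in WT ADX+DEX and 13.6 ± 0.424 FPKM in WT ADX at ZT0 (log2 change 1.31 ± 0.05, adjusted p = 1.35e-21). Trim54 (MuRF3), a relative of Trim63, had 371 ± 28.0 FPKM in WT ADX+DEX and 160.0 ± 20.6 FPKM in WT ADX (log2 change 1.22 ± 0.07, adjusted p = 2.64e-17). Fbxo40, an F-box protein known for degrading IRS1 in muscle, had 86.5 ± 5.53 FPKM in WT ADX+DEX and 53.1 ± 7.42 FPKM in WT ADX at ZT12 (log2 change 0.71 ± 0.10, adjusted p = 1.05e-07). Of 13 SCF partners, ubiquitin genes and E2 enzymes, 5 were higher and 3 lower at ZT0 and 8 higher and 1 lower at ZT12, or 61.5% and 69.2% called, near the shares of all genes. Of 5 ubiquitin-specific proteases, which remove ubiquitin, 3 were higher and 1 was lower at each time.

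Adrenaline moved the same lists both ways. Of the FOXO-induced genes 7 were higher and 8 lower at ZT0, and 9 higher and 3 lower at ZT12, in WT ADX+ADR against WT ADX, with medians of -0.09 and -0.01. The shares called were 62.5% at ZT0 and 50% at ZT12, against 51.1% and 53.0% of all genes, so the ZT12 count was at the background. Set directly against WT ADX+ADR, WT ADX+DEX was higher in 13 and lower in 1 at ZT0, and higher in 15 and lower in 0 at ZT12. That is 54.2% and 62.5% higher, against 25.1% and 21.2% of all genes. Cdkn1a, the cell cycle inhibitor p21, had 19.5 ± 0.497 FPKM in WT ADX+ADR and 3.47 ± 2.69 FPKM in WT ADX at ZT0 (log2 change 3.17 ± 0.46, adjusted p = 7.15e-07). Klf15 had 18.0 ± 2.65 FPKM in WT ADX+ADR and 5.56 ± 1.59 FPKM in WT ADX (log2 change 1.72 ± 0.16, adjusted p = 5.19e-11).

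After adrenalectomy alone, no FOXO-induced gene or other ligase passed as higher in WT ADX against WT sham. Of the 24 FOXO-induced genes 7 were lower at ZT0 and 8 at ZT12, and of the 18 ligases 6 and 7. As shares these are 29.2% and 33.3% of the FOXO-induced genes and 33.3% and 38.9% of the ligases, against 19.4% and 16.6% of all genes. Medians were -0.10 and -0.15 for the FOXO-induced genes, against -0.02 over all tested genes at both times. Map1lc3a had 45.2 ± 8.62 FPKM in WT ADX and 84.5 ± 7.58 FPKM in WT sham at ZT0 (log2 change -0.92 ± 0.11, adjusted p = 7.51e-08). Ubr2 had 13.6 ± 0.424 FPKM in WT ADX and 18.4 ± 0.689 FPKM in WT sham (log2 change -0.43 ± 0.05, adjusted p = 1.95e-07). Klf15 at ZT12 had 7.35 ± 0.0386 FPKM in WT ADX and 20.1 ± 2.79 FPKM in WT sham (log2 change -1.44 ± 0.14, adjusted p = 3.27e-09). In RE-RE muscle, where 5.45% and 5.32% of all genes were called, 1 FOXO-induced gene was lower in RE-RE ADX at ZT0 and 4 at ZT12, Bnip3 among them with 43.0 ± 2.23 FPKM in RE-RE ADX and 55.7 ± 3.02 FPKM in RE-RE sham (log2 change -0.38 ± 0.06, adjusted p = 0.000564).

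Between the times in WT sham muscle, 7 FOXO-induced genes were higher and 4 lower at ZT12, 45.8% called against 23.5% of all genes. Pik3ip1, an inhibitor of PI3-kinase, had 16.4 ± 1.05 FPKM at ZT12 and 9.78 ± 2.61 FPKM at ZT0 (log2 change 0.78 ± 0.16, adjusted p = 0.000408), and Cdkn1a had 3.17 ± 1.77 FPKM at ZT12 and 11.9 ± 4.01 FPKM at ZT0 (log2 change -2.02 ± 0.43, adjusted p = 0.000655). Usp2, a protease that removes ubiquitin and whose transcript is known to cycle with the clock, had 66.7 ± 6.64 FPKM at ZT12 and 18.7 ± 3.13 FPKM at ZT0 (log2 change 1.84 ± 0.16, adjusted p = 2.76e-11). The 23 upstream regulators were divided, with 5 higher and 5 lower at ZT12, 43.5% called against 23.5% of all genes. Their median log2 change was -0.06, against 0.01 over all tested genes. Klf15 and Sgk1 were 2 of the 5 that were higher. They had 20.1 ± 2.79 and 46.9 ± 8.81 FPKM at ZT12, against 9.78 ± 2.21 and 18.6 ± 9.20 FPKM at ZT0. Of the 18 other ligases 5 were higher and 2 lower at ZT12, 38.9% called. Asb2, a muscle ligase subunit, was 1 of the 2 that were lower, with 132 ± 26.5 FPKM at ZT12 and 206 ± 30.5 FPKM at ZT0 (log2 change -0.66 ± 0.15, adjusted p = 0.00149). In WT ADX+DEX 10 FOXO-induced genes were higher and 3 lower at ZT12, 54.2% called against 27.8% of all genes. Gadd45a, a stress gene induced in atrophy, had 25.4 ± 4.21 FPKM at ZT12 and 9.01 ± 1.31 FPKM at ZT0 (log2 change 1.49 ± 0.20, adjusted p = 3.86e-07), while Foxo1 and Foxo3 themselves were lower there. In RE-RE ADX muscle 0 of the 24 passed between times, where 0.775% of all genes did.

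**Figure D4:**
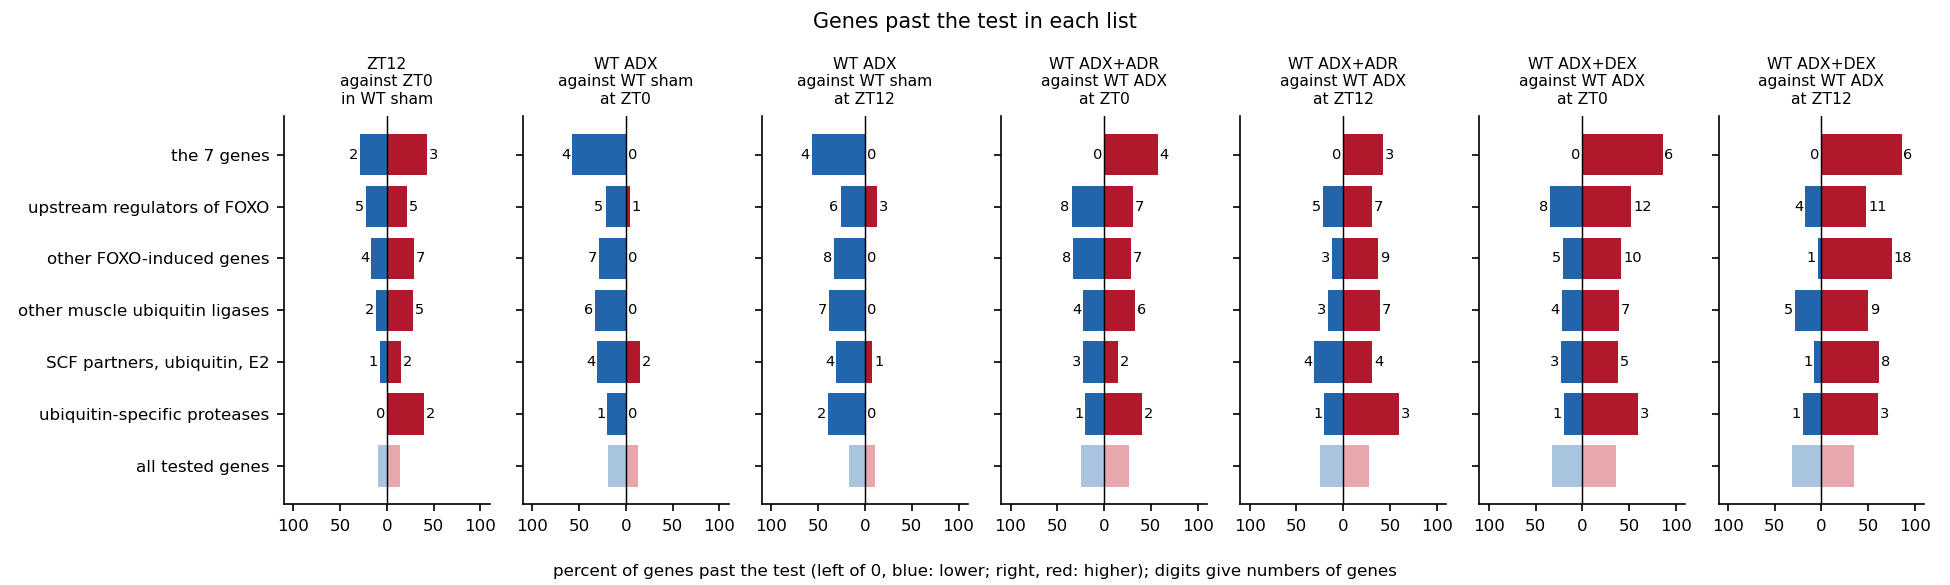
Share of each list (percent, x axis) that passed the test as higher (red) or lower (blue) in 7 comparisons, for the 5 pathway lists, the 7 genes and all tested genes. In WT ADX+DEX against WT ADX at ZT12, 18 of 24 FOXO-induced genes and 6 of the 7 genes were higher.

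The members varied together in part. Over the 12 group means of log2 FPKM, Pearson's r was 0.94 between Foxo1 and Foxo3, 0.89 between Foxo4 and Trim63, 0.79 between Fbxo32 and Fbxo31 and 0.63 between Fbxo32 and Trim63, while Fbxo30 had r between -0.26 and 0.19 with the other 6. Within groups, over the deviations of the 47 libraries from their group means, r was 0.60 between Fbxo32 and Trim63 and 0.38 between Foxo1 and Foxo3. These values describe points that share libraries and depth, and carry no test. By the same measure over the group means, the genes most like Fbxo31 among 9438 candidates were Klf15 (0.99), Vps11 and Tut4 (0.98 each). For Foxo1 they were Fry (0.98), Fam160b1 and Stxbp4 (0.94 each), and for Foxo3 Ifrd2, Egln2 and Herpud1 (0.96 each). Fbxo32 was most like Tatdn2 (0.98), Prmt9 (0.96) and Ankrd40 (0.95), and Trim63 most like Yipf3, Plbd2 and Gle1 (0.96 each). Foxo4 had Cog4, Huwe1 and Eif3b (0.97 each), and Fbxo30 had Tmem135 (0.92), Trove2 (0.85) and Fam208b (0.83).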

How the data were processed

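Tibialis anterior of 47 mice in 12 groups was sequenced as single-end reads of 60 bp, about 25 M per sample by the labels' protocols. The submitters' processing notes name the aligner HISAT2 2.1.0 beside featureCounts 1.6.2, edgeR 3.30.0, Trim Galore 0.5.0 and FastQC 0.11.8, and the build GRCm38. The authors deposited log2 FPKM values. Their minimum is log2 of 0.01, which was taken to mean an added 0.01 FPKM. Whether libraries were normalized further is not given in the sources used here. Depth was recovered from 68 genes at 0 in at least 30 libraries, with a median of 100% of values within 0.05 of a whole read (lowest library 87.5%).

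Means of the 12 groups were fitted with limma 3.58.1 in R 4.3.3 (lmFit, contrasts.fit, eBayes with trend; 35 residual degrees of freedom) to genes with at least 1 FPKM in at least 3 libraries. In each of 34 contrasts, two-sided p-values received a Benjamini-Hochberg adjustment over 12000 genes. A log2 change understates that of genes near 0. The labels give each library its own animal but no litter or batch, and p-values measure the spread between these libraries.

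The 7 genes and the lists were chosen with earlier results of these data known. Beside the 7 genes, the text names up to 3 members of a list with the smallest adjusted p in a comparison, and the 3 genes most like each member by group means. The script was tested on simulated data. Alternatives were another pseudocount, no filter, equal library medians, a model of only the groups compared, age in weeks as a covariate, a block for the replicate number, leaving out each library, and leaving out the 7 libraries that stand apart. Replicate numbers within a time were not taken to pair samples across groups. Summaries and figures were made in Python 3.11.15.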

Additional observations from a re-analysis of the deposited data

Results flagged for a closer look

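Of 77 combinations of gene and group with 4 libraries, 4 held an extreme library with a gap large for the range of its group. Chance alone flags about 1 in 20 such groups, which is close to the share found. The Foxo3 and Fbxo30 groups named next varied less than counting error would give, so small distances were flagged there. The lowest library of Foxo3 in WT sham at ZT12 had 6.16 FPKM, and the lowest of Foxo4 in the same group had 66.9 FPKM. The highest library of Trim63 in WT ADX+DEX at ZT0 had 111 FPKM, and the lowest of Fbxo30 in RE-RE ADX at ZT0 had 3.43 FPKM. No cause was tested for any of them.

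Of 70 tests of a difference between effects, 16 passed the threshold, and they concerned 4 genes. The ZT12-over-ZT0 change of Foxo1 differed from that in WT sham by -2.42 in WT ADX+DEX, -1.28 in WT ADX+ADR and -1.22 in WT ADX on the log2 scale, and the WT ADX+DEX change differed by -1.15 from WT ADX+ADR and by -1.20 from WT ADX. For Foxo3 the WT ADX+DEX change differed by -1.20 from WT sham, by -0.61 from WT ADX+ADR and by -0.95 from WT ADX, and the WT ADX+ADR change differed by -0.59 from WT sham. For Fbxo31 the WT ADX+DEX change differed by -0.60 from WT sham and by -0.45 from WT ADX, and the WT ADX+ADR change differed by -0.49 from WT sham. The change of Fbxo31 between ADX and sham mice differed between RE-RE and WT by 0.80 at ZT0 and 0.85 at ZT12. For Fbxo30 the WT ADX+DEX time change differed by 0.49 from WT sham. Its change between ADX and sham mice at ZT0 differed by 0.49 between RE-RE and WT.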

How the results depend on the processing

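Of 238 combinations of gene and comparison, 94 passed the test, 74 of them under every alternative that was run, and none changed direction while past the threshold. Of the 144 that did not pass, 20 passed in at least 1 alternative. In a model of only the groups compared, calls fell to 6 of 13 between times and to 4 of 8 for adrenalectomy, so these calls rest in part on the spread being estimated over all 12 groups. Leaving out 1 library at a time gave 12 to 15 calls between times, 7 to 9 for adrenalectomy, 19 to 20 of 19 for the hormones against WT ADX, 9 to 9 of 9 for WT ADX+DEX against WT ADX+ADR, 17 to 20 of 19 for the hormones against WT sham, 8 to 12 of 10 for RE-RE against wild type and 15 to 17 of 16 for differences between effects. Same-numbered libraries were treated as unpaired. Of 64 such pairs, 7 had a correlation of deviations above 0.1 (range -0.137 to 0.248). In 0 of 18 comparisons did every library correlate best with its own number. At ZT0, 6 of 8 libraries did in WT ADX+ADR against WT sham, and 4 of 6 in WT ADX against WT sham. The replicate block within a time gave 7 calls for adrenalectomy, 8 for RE-RE against wild type and an unchanged number in the other 4 families. The 3 calls lost under that replicate block were Foxo4 in WT ADX against WT sham at ZT12 (adjusted p = 0.0716) and Foxo1 in RE-RE ADX against WT ADX at ZT0 and ZT12 (adjusted p = 0.0875 and 0.0821). No paired analysis was possible because the ZT12 and ZT0 groups share no replicate numbers, for the comparisons between times. Fbxo30 had the lowest mean level of the 7, with 294 to 686 reads per library. In WT sham at ZT0 counting error was larger for Foxo1, at 5.34%, than for Fbxo30, at 4.79%.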
